A study of Zea mays with 18 samples.

Results

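This report describes leaf microRNAs (miRNAs) of maize seedlings after 8 days at low phosphate. A leaf library taken on day 8 was set against a leaf library taken on day 0, and a library of day 4 was used to place the differences in time. Every miRNA entry that reached 10 reads per 1000000 clean reads (RPM) in at least 1 of those 3 libraries was kept, which gave 141 of the 207 rows of the low-phosphate table. Rows of a family with identical values in all 10 low-phosphate libraries were counted once, leaving 105 distinct entries of 156, from 22 families. An entry is a mature strand of a named hairpin, either the guide or the opposite, star strand, marked with an asterisk. Of the 105 entries, 75 reached the minimum on all of days 0, 4 and 8, 2 on days 0 and 8, 5 on days 0 and 4, 6 on days 4 and 8, 5 only on day 8, 11 only on day 4 and 1 only on day 0. At the edge of the rule, miR168a* was just inside with a highest value of 10.1 RPM, and miR399b was just outside with 9.79 RPM.

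All plants were of the maize inbred line Q319 and were raised in nutrient solution with 1000 μM KH2PO4. The day 8 leaves (4-leaf stage) and the day 4 leaves (3-leaf stage) came from plants moved to 5 μM KH2PO4, and the day 0 leaves (3-leaf stage) came from the start of that treatment. Each of these groups was 1 library, as were days 1 and 2 of the same course, so no value at low phosphate has a repeat and the differences between single days were not tested. A growth control at sufficient phosphate, with 1000 μM KH2PO4 throughout, had 2 leaf libraries on day 8 (4-leaf stage) and 2 on day 0 (3-leaf stage). Each biological repeat held tissue of 15 to 20 plants, so the spread between the control libraries is spread between pools. Within the low-phosphate course, days at low phosphate and growth from the 3-leaf to the 4-leaf stage cannot be told apart.

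In plants short of phosphate, transcription factors of the starvation response switch on a few miRNAs. miR399 silences PHO2, a ubiquitin-conjugating enzyme that removes phosphate transporters, and miR827 silences proteins with an SPX domain, NLA in Arabidopsis and SPX-MFS transporters in rice. Other leaf miRNAs follow different nutrients or growth stage: miR397, miR398, miR408 and miR528 target copper proteins such as laccases, superoxide dismutases and plantacyanins, miR395 targets sulfate assimilation, and miR156 and miR172 act against each other in the change from juvenile to adult leaves.

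The leaf libraries held 13500000, 13021000, 15952000, 12885000 and 18079000 clean reads on days 0, 1, 2, 4 and 8, so 3 reads, the limit set by a count of 0, correspond to between 0.166 and 0.233 RPM. The libraries carried leaf markers: miR166j, miR156j, miR528a* and miR396f* summed to between 1279 and 2878 RPM in the 5 leaf libraries, against 82.7 to 99.5 RPM in the 5 root libraries. Of 5 root markers, miR167b*, miR319b, miR160a* and miR171g were blank, which means under 1 RPM, in all 5 leaf libraries. The fifth, miR1432, was measured in both organs and did not separate them on day 0, with 58.4 RPM in leaf and 45.5 in root. It was higher in root than in leaf on days 1, 2, 4 and 8. The most abundant entry, miR528b, took 23.4, 20.7, 27.0, 5.91 and 8.29% of clean reads on days 0, 1, 2, 4 and 8, and miR156a took 9.16, 4.09, 6.16, 7.67 and 3.18%. With near-identical members counted once, the members summed to 72.5, 57.0, 73.7, 37.2 and 33.2% of clean reads on the same days. Entries that share only part of their reads, such as miR528a and miR528b, both count in that sum. It was lowest on days 4 and 8, which bears on each lower value per clean read. Values are therefore given per clean read, as deposited, and list counts that change when the listed total is used instead are given with each list.

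On day 8 the phosphate-starvation miRNAs stood far above day 0, and most copper-associated miRNAs stood below it. Of the 105 entries, 15 were at least 2-fold higher and 25 at least 2-fold lower on day 8 than on day 0, on the scale of log2(RPM + 1). Over all 156 distinct entries of the table, with blanks set to 0.5 RPM, 15.4% were higher and 20.5% lower by the same rule, and the median log2 difference of the members was 0.08. Of the 15 higher entries 5 had entered the rule only through day 8 and 5 through days 4 and 8, while 5 also reached the minimum on day 0. All 8 phosphate-starvation entries were among the 15 higher and none among the lower, while 11 of 13 copper-associated entries were lower and none higher. Of those 8, only miR827 and miR827* reached the minimum on day 0. The miR399 entries entered the rule only through later libraries, so a later value above day 0 was built into their choice. Families that target growth regulators (miR159, miR164, miR166, miR171 and miR396) had 0 of 34 entries past 2-fold in either direction. For scale, replicates at sufficient phosphate differed 2-fold or more in 4 of 88 entries on day 0 (4.55%) and in 4 of 94 on day 8 (4.26%). Scaling to the listed total raised the median log2 difference by 1.11 and gave 65 higher and 2 lower entries, whereas scaling to the listed entries other than miR156 and miR528 gave 15 higher and 25 lower.

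**Figure D1:**
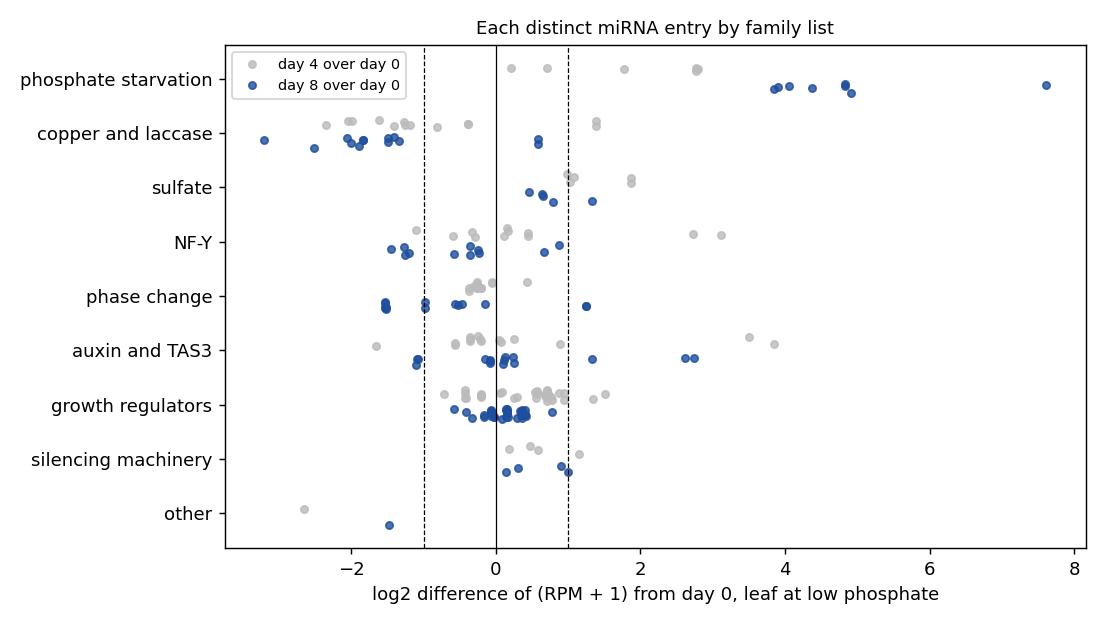
Each point is 1 distinct miRNA entry, placed by its log2 difference from day 0 of RPM + 1 in leaf at low phosphate, on day 4 (grey, upper points) and day 8 (blue, lower points), with 1 library a day. Rows are family lists, vertical spread within a row is only for visibility, and dashed lines mark 2-fold; on day 8 all 8 phosphate-starvation points lie right of the upper line, 11 of 13 copper points lie left of the lower one, and all 34 growth-regulator points lie between.

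miR827 and its star strand were the most abundant of the phosphate-starvation entries. miR827 had 48.3, 42.7, 58.2, 56.3 and 816 RPM on days 0, 1, 2, 4 and 8. The first 4 libraries lay close together and day 8 stood alone, 16.9-fold above day 0 (exact 95% binomial interval 15.6 to 18.3, counting error only, from 14760 reads on day 8 and 652 on day 0). miR827* had 23.4, 26.0, 30.2, 38.9 and 351 RPM on the same days, 15.0-fold higher on day 8 than on day 0 (13.4 to 16.9). The star strand thus stood at 0.430 of the guide on day 8 and at 0.485 on day 0, so both strands of the hairpin were higher by about the same factor.

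The miR399 entries were at or near 0 reads on day 0, and their order on day 8 was led by a star strand. miR399b* had 0 reads on day 0, was blank on day 1, and had 1.07, 2.41 and 194.6 RPM on days 2, 4 and 8. Its 3519 reads on day 8 place it at least 876-fold higher than day 0, taking 3 reads in the day 0 library as the limit. miR399c* and miR399e* had 19.7 and 13.9 RPM on day 8 against 0 reads each on day 0, at least 88.9-fold and 62.7-fold higher by the same limit, and both were blank on days 1, 2 and 4. Among guides, miR399e had 0.815 RPM on day 0, was blank on day 1, and had 3.82, 11.6 and 53.6 RPM on days 2, 4 and 8. It stood above its day 0 level in each library of days 2, 4 and 8, and was 65.8-fold higher on day 8 than on day 0 (interval 36.6 to 132), from 969 and 11 reads. miR399i and miR399j, with 50.6 and 50.7 RPM on day 8 and 0.815 RPM each on day 0, share most reads with miR399e and are not independent of it.

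Guides and star strands of miR399 were unequal in a way that differed by hairpin. On day 8 miR399b* was 19.9 times miR399b and miR399c* was 2.40 times miR399c, while miR399e* was 0.260 of miR399e. miR399b and miR399a, which lie just under the minimum and are not among the 105 entries, had 9.79 and 8.24 RPM on day 8 and 0 reads on day 0. On day 4, 4 of the 6 phosphate-starvation entries with a value were already 2-fold or more above day 0, namely miR399e, miR399i, miR399j and miR399b*. miR827 was not, with a log2 difference of 0.22 on day 4 and 4.05 on day 8. Over all 156 entries, 14.1% were higher and 7.05% lower on day 4 by the 2-fold rule, against 17 and 11 of the 105 members. The day 4 and day 8 comparisons share the day 0 library.

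**Figure D2:**
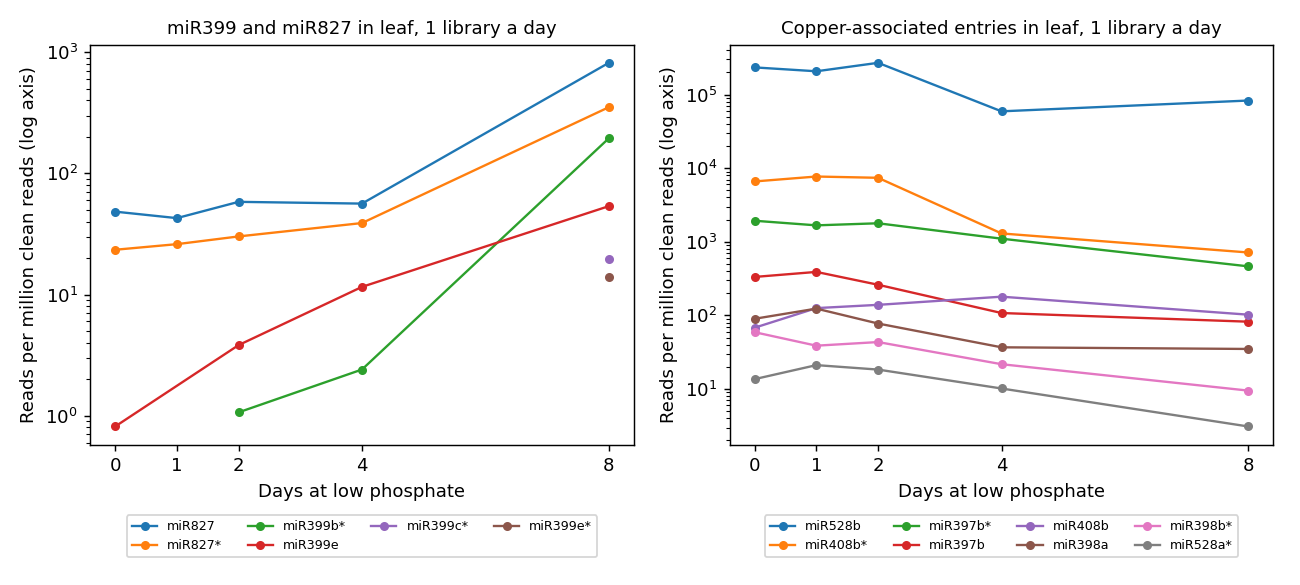
Reads per 1000000 clean reads on a log axis against days at low phosphate in leaf, 1 library a day, for miR399 and miR827 entries (left) and copper-associated entries (right); lines join days with a value, and days with 0 reads or a blank are not drawn. miR827 lies between 42.7 and 58.2 RPM on days 0 to 4 and at 816 RPM on day 8, while miR408b* lies between 6599 and 7697 RPM on days 0 to 2 and at 1298 and 715 RPM on days 4 and 8.

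The copper-associated entries were lower on day 8 in every family except for the guides of miR408. miR408b*, the star strand of a miRNA that targets plantacyanins and laccases, had 6599, 7697, 7396, 1298 and 715 RPM on days 0, 1, 2, 4 and 8. The first 3 libraries were alike and the last 2 far lower, so that day 8 was 9.22-fold below day 0 (9.06 to 9.40). Its guide miR408b went the other way on the same days, with 68.1, 126, 139, 179.6 and 102 RPM, a log2 difference of 0.58 between day 8 and day 0 that was -0.29 with day 1 as baseline and -0.05 with the mean of days 0, 1 and 2. The star strand was 6.995 times the guide on day 8 and 96.9 times the guide on day 0.

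miR398b*, from a hairpin whose guide targets copper/zinc superoxide dismutases, had 59.1, 38.8, 43.4, 21.7 and 9.51 RPM on days 0, 1, 2, 4 and 8, 6.21-fold lower on day 8 than on day 0 (5.26 to 7.37). The guide miR398a had 90.0, 124, 77.5, 36.9 and 35.0 RPM and was 2.57-fold lower on day 8 than on day 0. Both strands were below all 3 early libraries from day 4 on. miR397, which targets laccases, was lower in all 3 of its entries. miR397b* had 1930.1, 1671, 1784, 1102 and 464 RPM on days 0, 1, 2, 4 and 8, miR397b had 333, 389.7, 261, 108 and 82.1 RPM, and miR397a had 30.5, 35.4, 29.02, 12.8 and 7.52 RPM. These were 4.16-fold, 4.05-fold and 4.06-fold lower on day 8 than on day 0, with counting intervals that overlap (4.06 to 4.27, 3.82 to 4.30 and 3.33 to 4.96).

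miR528, a monocot family that targets laccases in maize, held the most abundant entry on day 8. miR528b had 233652, 206981, 269681, 59138 and 82906 RPM on days 0, 1, 2, 4 and 8, 2.82-fold lower on day 8 than on day 0. Its lowest library was day 4, not day 8, unlike miR397, miR398 and miR408b*, which were lowest on day 8. miR528a, which shares most of these reads, had 69811 RPM on day 8 and 196721 on day 0. The star strand miR528a* had 13.6, 21.1, 18.4, 10.2 and 3.10 RPM and was 4.40-fold lower on day 8 than on day 0 (3.25 to 6.05), and miR528b* had the same log2 difference, -1.84.

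By list, the copper-associated entries had a median log2 difference of -1.84 on day 8, and 9 of 13 were below all of days 0, 1, 2 and 4. Over all 156 entries 25.0% were below and 26.9% above all 4 earlier libraries, against 29 and 28 of the 105 members. The 11 lower calls also stood with the mean of days 0, 1 and 2 as baseline and with day 1 as baseline. In the listed total of day 0, miR156 entries summed to 776037 RPM and miR528 entries to 430400 RPM. Under scaling to that total, the list had 2 higher and 2 lower entries and a median of -0.79: miR408b* (-2.02) and miR398b* (-1.40) were past 2-fold, miR397b was at -0.83 and miR528b at -0.31, and the miR408 guides were 2-fold or more higher.

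**Figure D3:**
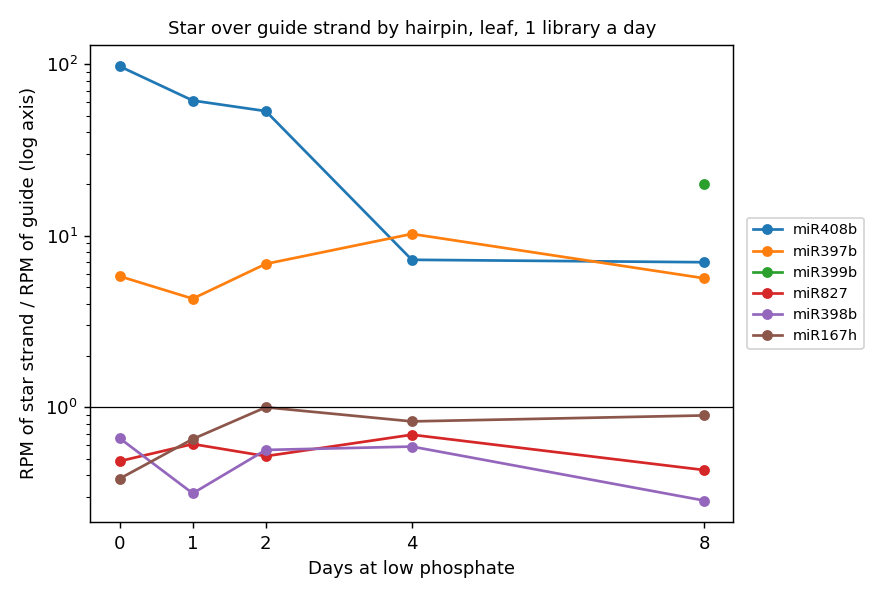
RPM of the star strand divided by RPM of the guide of the same hairpin (log axis) against days at low phosphate in leaf, 1 library a day; miR399b has both values only on day 8 and the horizontal line marks equal strands. For miR408b the ratio is 96.9 on day 0 and 6.995 on day 8, for miR399b it is 19.9 on day 8, and for miR827 it stays between 0.430 and 0.691.

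A line fitted across the whole course called some of these entries, but the fit is not separate evidence for the differences. It reuses the same single leaf libraries that defined the members and their differences. Without repeats, it measures scatter about the line and cannot show that a difference exceeds the spread between pools. The miR399 members entered the rule only through later libraries, so a rise was built into their choice. limma on log2(RPM + 1) of all 10 low-phosphate libraries, with a slope on log2(day + 1) within each organ, called 5 of 151 entries higher in leaf (3.31%) and 3 lower (1.99%) at a Benjamini-Hochberg adjusted p under 0.05. Of the 105 members, 3 rose and 3 fell. The slope of miR399e was 1.65 (SE 0.287, limma adjusted p = 0.0123), and the slopes of miR399i and miR399j, which share its reads, were 1.62 (both also 0.0123). miR408b* fell by 1.15 (limma adjusted p = 0.0364), miR398b* fell by 0.77 (0.0146) and miR397b fell by 0.74 (0.0364). Other phosphate and copper entries did not pass: miR827 had a slope of 1.11 (limma adjusted p = 0.142), miR827* 1.08 (0.0759), miR399b* 2.15 (0.0601) and miR528b -0.61 (0.241). Without the day 8 library 0 entries passed, with miR399e at a limma adjusted p of 0.225 and miR408b* at 0.313. Without day 1, miR408b* had a limma adjusted p of 0.108 and miR397b 0.103, and under scaling to the listed total miR408b*, miR398b* and miR397b had 0.0607, 0.0607 and 0.133.

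The growth control asked which of these differences also appear over the same 8 days at sufficient phosphate. The tables were normalised separately, so only differences within each table are set side by side. The exceptions are the day 0 levels of miR160a and miR1432, which are given for both courses. The low-phosphate differences are per clean read, while the control differences are from TMM-normalised counts of the listed entries. A gap between the 2 therefore also depends on scaling. Under the listed total, the low-phosphate differences of miR528b and of the copper-associated list were smaller, as given above. edgeR's quasi-likelihood test on the 4 control leaf libraries called 0 of 127 entries higher (0%) and 3 lower (2.36%), with 18 at an unadjusted p under 0.05; DESeq2 called 1 higher and 2 lower. Of the 3, 1 was among the members. Of the 105 members 97 had a value, and none was 2-fold or more higher while 2 were 2-fold or more lower, miR399i and miR399j. These 2 share a control value, as do miR172a and miR172b. miR827 had 90.9 ± 7.67 counts per 1000000 (CPM, TMM-normalised) on day 8 and 101 ± 21.2 on day 0 (SD, n = 2), a log2 difference of -0.16 (edgeR adjusted p = 0.722), against 4.05 at low phosphate. miR399e had 0.528 ± 0.200 CPM on day 8, against 0.911 ± 0.0255 CPM on day 0, a log2 difference of -0.79 (edgeR adjusted p = 0.368), from 8 and 5 counts on day 8 and 11 and 10 on day 0. miR399b* and miR399e* had 0 counts in all 4 control leaf libraries.

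Of 12 copper-associated entries with a control value, 1 fell and 11 did not pass, and their median log2 difference was 0.18 at sufficient phosphate, against -1.84 at low phosphate. The 1 was miR408b*, at 2216 ± 308 CPM on day 8, against 4412 ± 271 CPM on day 0 (SD, n = 2). Its log2 difference was -0.99 (SE 0.146, edgeR adjusted p = 0.0319), against -3.20 at low phosphate. Leaving out replicate 1 or 2 of day 0, or replicate 2 of day 8, gave miR408b* an edgeR adjusted p of 0.369, 0.215 and 0.124, in fits that assume a lone library to vary like the remaining pair. miR528b had 242072 ± 15815 CPM on day 8, against 229402 ± 40979 CPM on day 0 (log2 0.08, edgeR adjusted p = 0.885), and miR398b* had 51.0 ± 1.47 and 50.7 ± 2.61 CPM (log2 0.01, edgeR adjusted p = 0.972). Whether the change at low phosphate differed from that at sufficient phosphate was not tested, since the low-phosphate days have 1 library each.

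**Figure D4:**
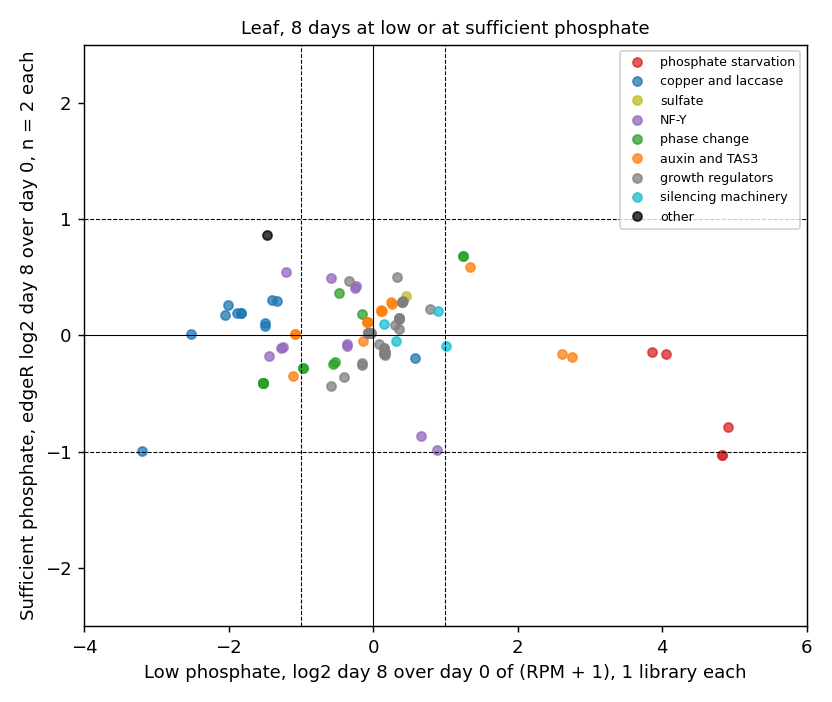
Each point is 1 of the 97 entries, distinct at low phosphate, with a value in both tables. miR399i and miR399j share a control value, as do miR172a and miR172b. The x axis gives the log2 difference of RPM + 1 between day 8 and day 0 at low phosphate (1 library each). The y axis gives edgeR's log2 difference between day 8 and day 0 at sufficient phosphate (n = 2 each), on a different scale, and dashed lines mark 2-fold. Points spread from -3.20 to 4.91 along x and from -1.03 to 0.87 along y, with phosphate-starvation entries at the right and copper entries at the left.

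In the sulfate and silencing families 2 of 9 entries were past 2-fold on day 8, both higher, against 15.4% higher over all 156 entries. The 5 miR395 entries, of the family that targets ATP sulfurylases, had log2 differences between 0.46 and 1.33, and 1 was past 2-fold. That entry, miR395n*, had 3.70, 3.53, 4.51, 8.61 and 10.8 RPM on days 0, 1, 2, 4 and 8, while miR395a peaked on day 4, with 5.56, 3.76, 3.45, 23.1 and 9.18 RPM. On day 4, 4 of the 5 were 2-fold or more higher than on day 0. With day 1 as baseline, or under scaling to the listed total, all 5 were past 2-fold on day 8, with medians of 1.38 and 1.71. miR168a, which targets AGO1, the protein that carries miRNAs, was steady at 55245, 61006, 64462, 62547 and 61093 RPM. The star strand miR168b*, from another hairpin with the same guide values, had 6.07, 10.4, 5.77, 9.62 and 13.2 RPM. Its log2 difference of 1.00 on day 8 lay at the 2-fold line. The star strand of miR168a itself, miR168a*, had 4 RPM on day 0 and 8.30 on day 8, a log2 difference of 0.89. Of the 4 silencing entries, 0 were called with day 1 as baseline and all 4 were higher under the listed total.

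The NF-Y list (miR169, which targets NF-YA transcription factors) had 4 of 11 entries lower on day 8 and none higher. Over all 156 entries 20.5% were lower and 15.4% higher. All 4 were guides: miR169j had 10.3, 9.29, 8.84, 11.3 and 3.15 RPM on days 0, 1, 2, 4 and 8, 3.27-fold lower on day 8 than on day 0 (2.38 to 4.53), and miR169a had 28.1, 18.5, 16.6, 12.5 and 11.6 RPM. The star strand miR169k* peaked on day 4, with 1.11, 0.154, 0.752, 17.3 and 2.88 RPM. Under scaling to the listed total 0 entries of this list were lower and 2 were higher, and with a pseudocount of 5 RPM 0 were lower. At sufficient phosphate miR169j had a log2 difference of -0.18 (edgeR adjusted p = 0.715) and miR169k* of -0.99 (edgeR adjusted p = 0.169, but 0.00989 with listed totals, 0.00444 with no minimum and 0.0237 with all 8 control libraries).

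The phase-change list divided by family. miR156, which keeps leaves juvenile by silencing SPL factors, had 6 of 12 entries lower on day 8, against 20.5% of all 156 entries. Those 6 share most of their reads: miR156a had 91598, 40900.5, 61582, 76669.5 and 31791 RPM on days 0, 1, 2, 4 and 8, 2.88-fold lower on day 8 than on day 0. Day 1 was the next lowest library, and with day 1 as baseline miR156a had a log2 difference of -0.36 and 0 entries of the list were called, while the listed total left 0 miR156 entries lower and 1 higher. miR156d and miR156b were 1.97-fold lower, with miR156d at 55238 RPM on day 8 and 108767 on day 0, and both turned to a log2 difference of 0.20 under the listed total. At sufficient phosphate miR156a had 42521 ± 9826 CPM on day 8, against 56565 ± 7179 CPM on day 0 (SD, n = 2), a log2 difference of -0.41 (edgeR adjusted p = 0.368, but 0.00575 with all 8 control libraries).

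miR172, which silences AP2-like factors and marks adult leaves, was higher in both of its distinct entries. These entries, miR172a and miR172b, share most of their reads and are not independent. miR172b had 209, 249.7, 208, 202 and 497 RPM on days 0, 1, 2, 4 and 8, so that 4 libraries lay together and day 8 was 2.37-fold above day 0 (2.27 to 2.48). At sufficient phosphate it had 417 ± 35.0 CPM on day 8, against 260 ± 24.3 CPM on day 0 (SD, n = 2), a log2 difference of 0.68 (edgeR adjusted p = 0.0758), against 1.24 at low phosphate.

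In the auxin list, which includes miR160 and miR167 that target auxin response factors, 3 of 15 entries were higher and 3 lower. These counts are near the shares over all 156 entries, 15.4% higher and 20.5% lower. The listed total gave 12 higher and 0 lower, and 0 were lower with day 1 or with the mean of days 0, 1 and 2 as baseline. miR160a had 0.963 and 1.77 RPM on days 0 and 1, was blank on day 2, and had 27.3 and 12.2 RPM on days 4 and 8. It was 12.6-fold higher on day 8 than on day 0 (7.24 to 24.1), from 220 and 13 reads, and miR160d, at 15.1 RPM on day 8 and 1.63 on day 0, was 9.27-fold higher. Both were highest on day 4. At sufficient phosphate miR160a had 23.2 ± 0.155 CPM on day 8, against 26.3 ± 0.0683 CPM on day 0 (SD, n = 2), a log2 difference of -0.18 (edgeR adjusted p = 0.659).

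The star strand miR167h* had 375, 661, 846, 698 and 948 RPM on days 0, 1, 2, 4 and 8, 2.53-fold higher on day 8 than on day 0, while its guide miR167h had 1059.8 RPM on day 8 and 979 on day 0. miR167a, which is among the lower calls lost under those 3 settings, was 2.12-fold lower on day 8, with 765, 592, 502, 518 and 360.2 RPM on the same days. miR167j* had 28.4, 10.9, 15.5, 8.30 and 12.7 RPM, so its log2 difference of -1.10 rested on day 0 and turned to 0.20 with day 1 as baseline. miR390a, which starts TAS3 silencing, and miR393a, which targets TIR1/AFB auxin receptors, had log2 differences of -0.14 and 0.26.

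Among the members, the growth-regulator families held no entry past 2-fold on day 8. Their 34 entries had log2 differences between -0.58 (miR171d*, of a family that targets SCL factors) and 0.78 (miR164f, of a family that targets NAC factors) on day 8, with a median of 0.15. Of the 34, 10 were above all earlier libraries, near the 26.9% of all 156 entries. Among those 10, 4 were miR159 and 5 were miR164 entries, most of which share reads. With day 1 as baseline 9 of the 34 were 2-fold or more higher, against 27 of all 105 members. miR166a, which targets HD-ZIP III factors, had 4452, 5193, 3333, 7292 and 4244 RPM on days 0, 1, 2, 4 and 8, with day 4 the highest. Under scaling to the listed total 29 of the 34 were higher and 0 lower. With no minimum and blanks set to 0.5 RPM, 4 of 49 entries of these families were higher and 0 lower. Outside the lists, miR1432 had 58.4, 14.6, 57.8, 8.46 and 20.4 RPM on the same days, 2.87-fold lower on day 8 than on day 0, but its level went up and down between neighbouring days and was 0.45 higher on the log2 scale with day 1 as baseline and at -0.33 under the listed total.

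**Figure D5:**
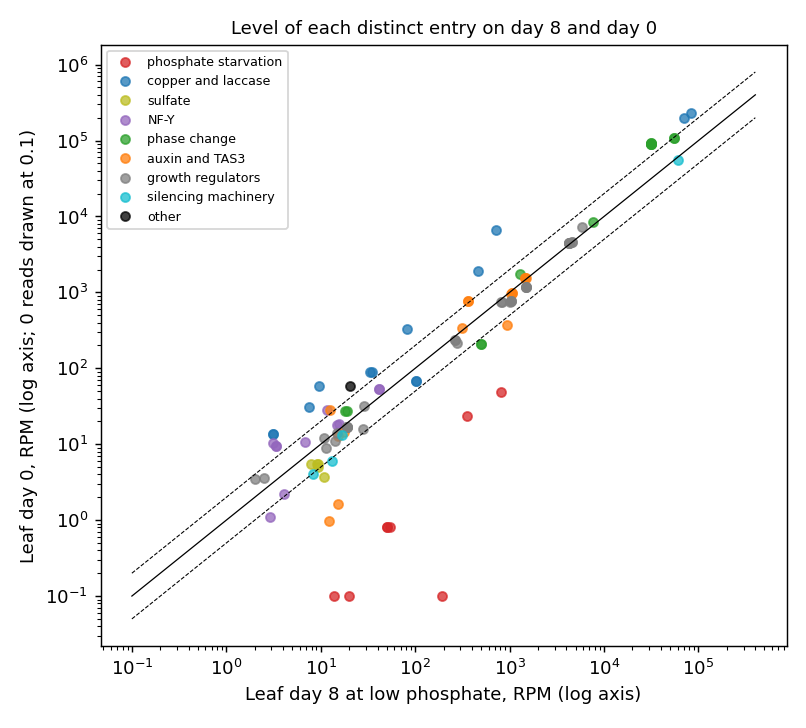
Level of each of the 105 distinct entries in leaf on day 8 (x axis) and day 0 (y axis) at low phosphate, in RPM on log axes, 1 library each; the solid line marks equal levels, dashed lines 2-fold, and 0 reads are drawn at 0.1 RPM. Phosphate-starvation entries lie right of the lines, from 13.9 to 816 RPM on day 8, and miR528 and miR156 at the upper end lie left of the equal line.

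In bulk leaf RNA, fewer cells of a type and less RNA per cell cannot be told apart, which bears on each lower value above. Ranked by level on day 8, the 5 most abundant distinct entries were miR528b, miR528a, miR168a, miR156d and miR156b, with log2 differences between day 8 and day 0 of -1.49, -1.49, 0.15, -0.98 and -0.98.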

How the data were processed

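Small RNA of 18 leaf and root libraries of maize Q319 was sequenced as 50 nt tags, and clean tags were assigned to known miRNAs, per the series' design text. The low-phosphate values deposited by the authors are a signal, namely reads of an entry per 1000000 clean reads (RPM). In the sufficient-phosphate table the values deposited by the authors were read as a raw count. The sources used here name no counting tool, miRNA release or genome build, and miRNA sequences were not used here. A deposited 0.01 means 0 reads. Blank cells (162 in leaf) are under 1 RPM. In root on day 1, 13 cells that repeat day 0 were treated as blank. Clean reads were recovered from the steps of low values, of which 100% were whole within 0.03 reads. The authors' fold, p and mark columns were not used.

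Folds between single libraries used log2(RPM + 1), a call at 2-fold and no test; this scale understates differences of rare entries. Exact 95% intervals and the floor of 3 reads per library cover counting error only. Control leaf counts (11072103 and 12799128 on day 0, 11987349 and 12068821 on day 8, shared reads counted in each entry) were tested by edgeR 4.0.16 (R 4.3.3, TMM, robust quasi-likelihood, 10 counts in at least 2 libraries, 2 residual degrees of freedom), and SEs are the absolute log2 difference over the square root of F. The course was tested with limma 3.58.1 (trended, robust, 1 RPM in at least 2 libraries, blanks at 0.5, 6 residual degrees of freedom). Both were tested on simulated data. p-values were adjusted by Benjamini-Hochberg over all entries tested. The edgeR p-values measure the spread between these pools of plants, and the labels do not say whether pools were grown separately. The limma p-values rest on 1 library a day and measure scatter about a line on log2(day + 1), taken over leaf and root together. They do not measure spread between repeat pools.

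Named were all miR399 and miR827 entries, the 10 highest and 10 lowest differences on day 8, the highest and lowest of each list, and the 5 most abundant on day 8. Others named (miR398a, miR395a, miR169a, miR167a, miR167h*, miR166a, miR390a, miR393a, those named only for running against the control, and the entries outside the minimum) were chosen after their values were seen. Members, lists and markers were chosen with earlier results of these data known. Alternatives were other pseudocounts, minima, scalings, baselines, tools, a replicate block and leaving out libraries.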

Additional observations from a re-analysis of the deposited data

Results flagged for a closer look

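For 22 of the 97 entries with a control value, the difference between day 8 and day 0 at low phosphate ran against that at sufficient phosphate, where the 2 control libraries of day 8 lay wholly on the other side of the 2 of day 0. The difference between the conditions was not tested, because each day at low phosphate has 1 library. Of the 22, 10 were past 2-fold at low phosphate and 12 were not. With 2 libraries a day, groups can readily lie apart without a difference, so the 22 are only a list for inspection. How many of the 97 lay apart on the same side as at low phosphate was not counted. Among the 97, edgeR called 0 higher and 1 lower, and that 1, miR408b*, ran the same way at low phosphate. Entries among the 22 that share reads, such as miR166j and miR166k, are not independent. The signs at low phosphate hold for values per clean read. Scaling to the listed total raised the median log2 difference of the members by 1.11, more than the size of some negative differences below. How many of the 22 would still run against the control under that scaling was not determined.

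miR399e, miR399i and miR399j, which share most of their reads, had log2 differences of 4.91, 4.83 and 4.83 at low phosphate, against -0.79, -1.03 and -1.03 at sufficient phosphate, from at most 11 counts a library. miR160a and miR160d had 2.75 and 2.61 at low phosphate, against -0.18 and -0.16 at sufficient phosphate. The day 0 level of miR160a was 0.963 RPM in the low-phosphate course and 26.3 CPM in the control, on different scales. miR397b had -2.01 at low phosphate, against 0.26 at sufficient phosphate (372 ± 16.3 CPM on day 8, against 310 ± 64.0 CPM on day 0, SD, n = 2). miR398a and miR398b, which share most of their reads, had -1.34 and -1.40 at low phosphate, against 0.30 each at sufficient phosphate, and miR169a had -1.20, against 0.55. miR1432 had -1.48 at low phosphate, against 0.87 at sufficient phosphate (12.5 ± 2.58 CPM on day 8, against 6.85 ± 1.56 CPM on day 0, SD, n = 2). Its day 0 level in the low-phosphate course was 58.4 RPM, on a different scale.

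The 12 under 2-fold were miR156j (-0.47 at low phosphate), miR164e (-0.33), miR166j (0.15), miR166k (0.15), miR166l (0.15), miR166m (0.14), miR169a* (-0.24), miR169b (-0.58), miR169b* (-0.25), miR169i* (0.66), miR169k* (0.88) and miR408b (0.58). Their log2 differences at sufficient phosphate lay on the other side of 0 and between -0.99 and 0.49.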

How the results depend on the processing

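On day 8 against day 0 at low phosphate, 15 entries were higher and 25 lower. A call at 4-fold gave 4 lower, a minimum of 50 RPM 9 higher, and no minimum 24 higher. Scaling to the listed total gave 65 higher and 2 lower, the mean of days 0, 1 and 2 as baseline 14 lower, and day 1 as baseline 27 higher and 14 lower. Chosen after seeing the data, counting near-identical members once gave 16 lower and a minimum of 10 RPM on the mean of the 5 leaf libraries 9 higher. miR167j* turned to 0.0183 (listed total) and 0.199 (day 1), and miR1432 to 0.454 (day 1). Changes of sign were looked for only in the entries covered by the naming rule. Among those under 2-fold, miR156d, miR156b and miR171d* turned positive under the listed total (0.20, 0.20 and 0.28). In the same set, miR408b turned negative with day 1 (-0.29) and with the mean of days 0, 1 and 2 (-0.05).

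On day 4, 17 were higher and 11 lower. Pseudocount 5 gave 11 higher, 4-fold 7 higher and 3 lower, a minimum of 50 RPM 6 higher, the listed total 40 higher and 6 lower, every row counted 33 higher, and the minimum on the mean, chosen after seeing the data, 6 higher.

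At sufficient phosphate 0 entries were higher and 3 lower. Median-ratio scaling gave 1 and 1, listed totals 5 and 8, no minimum 5 and 7, all 8 libraries 15 lower, and DESeq2 1 higher. With the replicate number as a block, 2 were higher and 5 lower, with miR169k* among the 5 (edgeR adjusted p = 0.0439). Same-numbered libraries deviated together at r = 0.206, and 2 pairs do not show that the numbers pair the pools. Leaving out 1 library gave 0 to 2 higher and 0 to 15 lower, with the 15 without replicate 1 of day 8, where 1 library is assumed to vary like the 2 of day 0.

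In the trend 5 rose and 3 fell. Pseudocount 5 gave 5 lower, pseudocount 0.1 10 higher, the 5 leaf libraries alone 3 and 1, days 4 and 8 against days 0, 1 and 2 11 and 7, and the listed total 0 lower. Leaving out 1 day gave 0 to 12 higher and 0 to 6 lower, both 0 without day 8 and 12 and 6 without day 4. The cause of these changes was not tested.

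The planned count test on recovered low-phosphate reads was not run, since the low values were too few to check that nearly all values are whole reads. Single libraries, and blanks under 1 RPM, limit what rare entries show.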
